A study of Mus musculus with 12 samples.

Results

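Oligodendrocytes are specified, kept in the lineage and driven to myelinate by a small network of transcription factors. The data described here are the RNA-Seq counts of 10 genes of this network, Olig1, Olig2, Nkx2-2, Sox8, Sox10, Myrf, Nkx6-2, Zfp488, St18 and Tcf7l2. They were chosen by symbol among the 55376 gene symbols of a raw count table, and all 10 passed the filter on expression. The table covered 12 samples of O1+ CD45- oligodendrocytes purified by FACS from brains of C57BL/6 mice at P40, with 4 samples per genotype and the cells of 2 brains pooled in each. O1 is a galactolipid antigen of differentiating and mature oligodendrocytes, and CD45, encoded by Ptprc, marks leukocytes.

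WT mice were compared with Cnp-Cre Jab1fl/fl mice, in which Cre deletes both floxed alleles of Jab1 (listed as Cops5), a subunit of the COP9 signalosome, called single mutants from here on. The third genotype was Cnp-Cre Jab1fl/fl p21CIP1-/-, the double mutants, which carry the same Cre and floxed alleles and in addition lack the cell cycle inhibitor p21CIP1 (Cdkn1a) in all cells from conception. Cre under Cnp is active from the late OPC stage on and also in Schwann cells. Mice that lack p21CIP1 with Jab1 intact were not analysed here.

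In the textbook order of the lineage, OLIG2 and NKX2-2 act in progenitors, and SOX10 and its relative SOX8 are kept through all later stages. SOX10 together with OLIG1, OLIG2 and ZFP488 switches on MYRF in cells that have left the cell cycle, and MYRF then acts with SOX10 at the genes of the myelin sheath. NKX6-2 and ST18 belong to the mature program, and TCF7L2, the nuclear partner of beta-catenin, is typical of the short premyelinating stage.

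Total counts per sample ranged from 61485556 to 153495112. Levels are given as CPM, counts scaled to the library total with TMM factors. A gene is said to have risen or fallen where the Benjamini-Hochberg adjusted p of edgeR's quasi-likelihood test, over the 17716 genes tested, was below 0.05. Cops5 was at 46.3 to 134 CPM in WT, 44.9 to 89.0 CPM in single mutants and 44.2 to 90.4 CPM in double-mutant samples. The whole-gene count thus overlapped among the genotypes, and it does not separate the floxed exons. For single mutants the paper reports less Cops5 mRNA by qPCR in sorted oligodendrocytes and less JAB1 protein in optic nerves. Cdkn1a rose in single-mutant samples (379 to 636 CPM against 16.0 to 85.4 CPM in WT, adjusted p = 0.0044). In double mutants its whole-gene count was at 64.7 to 103 CPM and thus not absent. Such a count does not show which part of the gene the reads came from. The paper reports that this transcript could not be detected by qPCR in sorted double-mutant oligodendrocytes. The cause of this difference was not tested. The identity of the sorted cells was read from 7 mature oligodendrocyte markers, among them Mbp, Mag and Mog, which were present in every sample. Their sum was 43899.7 to 101126 CPM in WT, 8808 to 34306 CPM in single mutants and 16575 to 51368 CPM in double mutants. Markers of other cells were present too. All 20 microglia markers rose in single-mutant samples, with a sum of 1396 to 3611 CPM against 111 to 335 CPM in WT, and 1 of them was at 0 in 1 WT sample. Ptprc was at 31.7 to 107 CPM against 0 to 1.53 CPM. Of 10 endothelial markers 7 rose (sum 1023 to 7198 CPM against 420 to 1002 CPM), and of 9 mural markers tested 5 rose. The share of all genes tested that rose was 5.19%. The astrocyte markers had the largest sum of these other cell types in WT, at 5332 to 12633 CPM, against 3552 to 8298 CPM in single mutants and 3949 to 10577 CPM in double mutants. Astrocyte and neuron lists of 10 genes and the 1 Schwann cell marker tested of 5 had 0 calls with edgeR in single mutants against WT. At an unadjusted p below 0.05, 1 astrocyte marker was higher and 2 lower, and 3 neuron markers were higher. Over all genes, 13.2% were higher and 9.3% lower at that p. DESeq2 called 1 neuron marker higher, beside 9.52% of all genes, and 0 of the others. All 10 neuron markers had a fitted log2 fold change above 0, with a median of 1.21. Their sum was 257 to 757 CPM against 156 to 270 CPM in WT, which overlapped. The part of these other cells in the results below was not tested. In such bulk samples, fewer cells of a type and less RNA per cell cannot be told apart.

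Of the lineage network, 6 of the 10 factors were lower in single-mutant than in WT samples and passed the test: Olig1, Sox8, Sox10, Myrf, Nkx6-2 and St18. Over all genes tested, 2.46% fell and 5.19% rose. The median log2 fold change was -1.82 over the 10 factors and 0.02 over all genes tested. Olig2, Nkx2-2 and Tcf7l2 had overlapping levels in both genotypes, and Zfp488 was lower in every mutant sample without passing the test. For 7 factors (the 6 that fell and Zfp488) every mutant sample was below every WT sample, which was the case for 7.26% of all genes. None was higher at an adjusted or unadjusted p below 0.05, nor were the samples of any factor apart in that direction, as they were for 9.88% of all genes. The number lower at an unadjusted p below 0.05 was 7, beside 9.3% of all genes, and DESeq2 called the same number lower, where it called 5.66% of all genes lower and 9.52% higher.

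**Figure D1:**
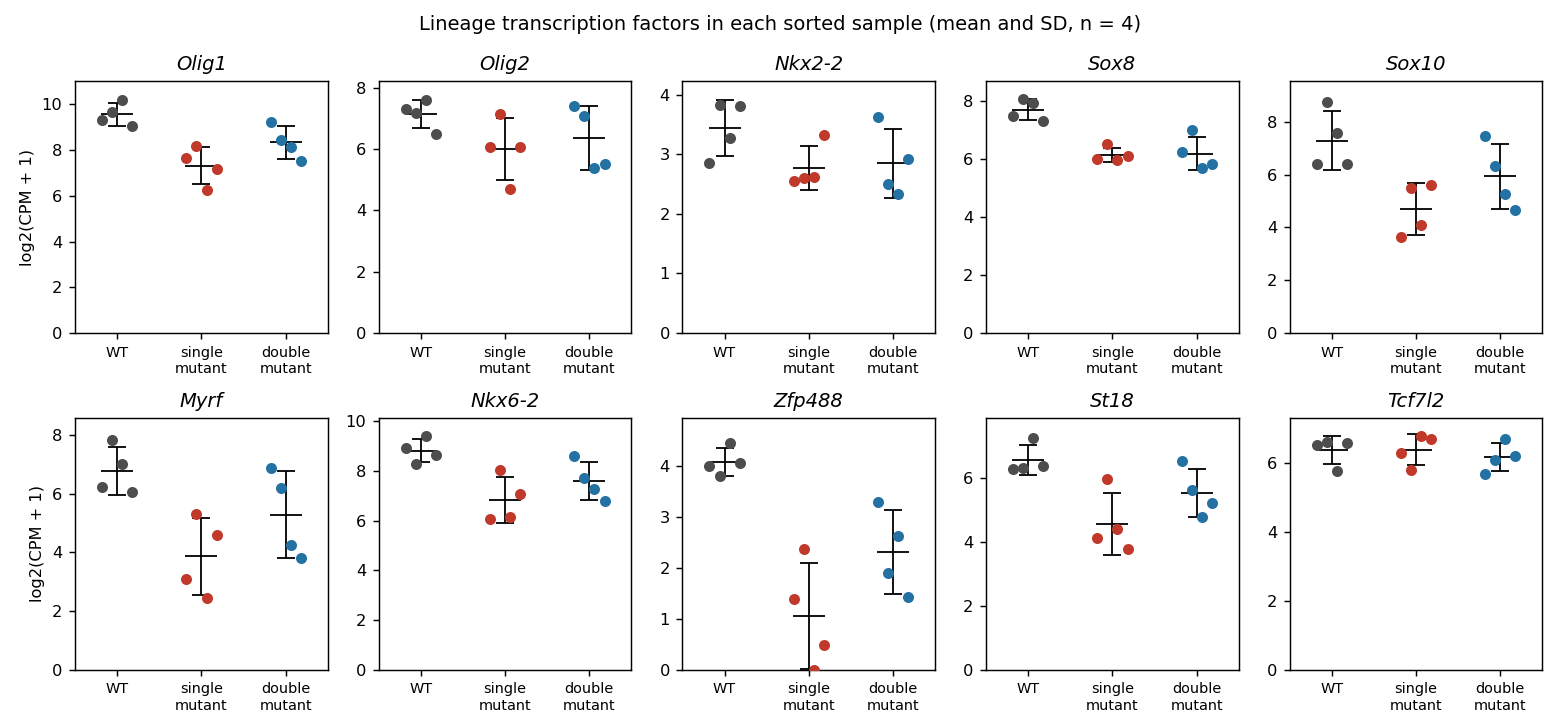
Level of each lineage factor as log2(CPM + 1) in the 4 samples of each genotype (points), with the mean and SD (bars), with the 3 genotypes side by side. For Olig1, Sox8, Sox10, Myrf, Nkx6-2, Zfp488 and St18 every single-mutant point lies below every WT point, while the Tcf7l2 points of the genotypes overlap.

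The factors of specification and lineage identity come first. Olig1 and Olig2 are a tandem pair of basic helix-loop-helix genes on chromosome 16 of GRCm38. Olig2, from 91225457 to 91228677 on the forward strand, is followed after 41.1 kb by Olig1, a gene of 1 exon from 91269772 to 91271933.

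Olig1, which is needed for maturation and for repair of myelin, was at 637, 824, 1179 and 527 CPM in WT replicates 1, 3, 5 and 6. In single-mutant replicates 1 to 4 it was at 199.9, 290.0, 76.2 and 142 CPM. The highest mutant sample was thus below the lowest WT sample. Olig1 fell by 2.16 on the log2 scale (standard error 0.44, adjusted p = 0.0146), a 4.47-fold lower level.

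Olig2, the factor without which no oligodendrocyte lineage forms, was at 156, 145, 193 and 89.8 CPM in WT, in the same order of replicates. In single mutants it was at 66.5, 142, 24.8 and 65.8 CPM. Replicate 2 of the mutants lay within the WT range and the other three lay below it. The log2 fold change of Olig2 was -0.96 (standard error 0.46, adjusted p = 0.245), which did not pass.

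Nkx2-2, a homeobox repressor on chromosome 2 (147177546 to 147194243, reverse strand) that times the start of differentiation, had the lowest level per kilobase of these early factors. It was at 6.22, 13.1, 8.70 and 13.0 CPM in WT and at 4.83, 5.07, 5.14 and 9.04 CPM in single-mutant samples. Mutant replicate 4 lay inside the WT range. Its log2 fold change was -0.77 (standard error 0.51, adjusted p = 0.427). Nkx2-2 shares 278 exonic bases with Nkx2-2os on the other strand (up to 768 counts), and whether reads were counted by strand is not stated, so its counts are uncertain.

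Sox8 (chromosome 17, 25565892 to 25570686) and Sox10 (chromosome 15, 79154908 to 79165240), both on the reverse strand, encode related HMG box factors of the SoxE group. Sox8 was at 182, 271, 243 and 159.6 CPM in WT, and at 63.6, 90.9, 62.2 and 67.8 CPM in single-mutant samples. No mutant sample reached the WT range. Sox8 had the smallest standard error of the 10 factors, and it fell by 1.59 on the log2 scale (standard error 0.29, adjusted p = 0.00922). Sox8 shares 329 exonic bases with the antisense gene 2810468N07Rik, which had up to 82530 counts and itself fell by 2.14 on the log2 scale (standard error 0.50, adjusted p = 0.0263), so without strand the 2 genes cannot be told apart where they overlap.

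Sox10, the factor that maintains oligodendrocyte identity, was at 83.4, 429, 190.2 and 84.4 CPM in WT. In single mutants it was at 11.6, 44.4, 16.0 and 47.6 CPM. The WT samples themselves spanned 5.15-fold, with replicate 3 far above the others, yet the lowest of them was above every mutant sample. Sox10 fell by 2.72 on the log2 scale (standard error 0.64, adjusted p = 0.0271), or 6.58-fold. Without WT replicate 3 the log2 fold change was -2.01 and no longer passed (adjusted p = 0.0727), nor did it pass without WT replicate 5 (-2.73, adjusted p = 0.0567) or mutant replicate 1 (-2.45, adjusted p = 0.0642) or 3 (-2.51, adjusted p = 0.0779).

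The factors of maturation follow. Myrf (chromosome 19, 10208272 to 10240748, reverse strand) encodes a membrane-bound factor that cleaves itself and then activates myelin genes in the nucleus. It was at 74.5, 228, 129 and 65.5 CPM in WT and at 7.63, 38.9, 4.51 and 23.0 CPM in single-mutant samples. Replicate 3 of WT was again the highest and replicate 3 of the mutants the lowest. Myrf fell by 2.74 on the log2 scale (standard error 0.66, adjusted p = 0.0306), a 6.70-fold lower level. Without mutant replicate 2 the log2 fold change was -3.41 (adjusted p = 0.0116). Without WT replicate 3 or 5, or mutant replicate 1, 3 or 4, it was -2.89 to -2.29 and did not pass (adjusted p 0.0591 to 0.0883).

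Nkx6-2, a homeobox gene of myelinating cells on chromosome 7 (139579376 to 139582797, reverse strand), was at 481, 311, 672 and 401 CPM in WT. The single-mutant samples had 66.4, 259, 69.6 and 132 CPM. Mutant replicate 2 came within reach of WT replicate 3, and replicates 1 and 3 were far below. Nkx6-2 fell by 1.82 on the log2 scale (standard error 0.47, adjusted p = 0.0375). The gene lies inside Inpp5a on the opposite strand and shares no exonic base with it.

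Zfp488, a zinc finger partner of OLIG2 on chromosome 14 (33967070 to 33978764, reverse strand), was at 15.0, 12.9, 20.7 and 15.6 CPM in WT. The 4 mutant samples had 1.62, 4.14, 0 and 0.40 CPM, from 127, 497, 0 and 30 counts. It had the largest fitted decrease among the 10 factors, with a log2 fold change of -3.37, and also the largest standard error, 1.18 (adjusted p = 0.115). DESeq2 placed it past the threshold (adjusted p = 0.00662), as did 2 of the other alternatives, voom (-5.86) and leaving out mutant replicate 2 (-4.58), and over its 15 alternatives the adjusted p ranged from 0.00662 to 0.216.

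St18, a zinc finger gene of the Myt family on chromosome 1 (6487231 to 6860940, forward strand), was at 77.9, 78.8, 153.4 and 82.6 CPM in WT. In single-mutant samples it was at 16.6, 61.8, 20.1 and 12.8 CPM. Mutant replicate 2 was the only one above 20.1 CPM. St18 fell by 1.82 on the log2 scale (standard error 0.50, adjusted p = 0.0489), the value nearest to the threshold, and it passed in 6 of 16 alternatives. Without mutant replicate 2 the log2 fold change was -2.58 (adjusted p = 0.00303).

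Tcf7l2 (chromosome 19, 55741820 to 55933654, forward strand), a mediator of Wnt signaling, showed no shift between these genotypes beyond its spread. It was at 90.0, 96.4, 52.9 and 94.5 CPM in WT and at 76.7, 54.4, 109 and 102 CPM in single-mutant samples. The lowest sample was replicate 5 in WT, which was the highest sample for Olig1, Olig2, Nkx6-2, Zfp488 and St18. Among the mutants the lowest was replicate 2, where Olig1, Olig2, Sox8, Myrf, Nkx6-2, Zfp488 and St18 were highest. The log2 fold change of Tcf7l2 was 0.04 (standard error 0.32, adjusted p = 0.963), and its sign turned in 5 of 16 alternatives.

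The number of calls depended on single samples. Without WT replicate 3 or 5, or mutant replicate 1 or 3, only 2 factors passed. Without mutant replicate 4 there were 3, and without WT replicate 1 or 6 there were 4. Calls were fewer over all genes too. With all samples 435 genes fell, in these fits 174 to 290, and without mutant replicate 2 667. Nkx6-2 and St18 kept their calls only when the sample left out was mutant replicate 2. Olig1 passed in all 16 alternatives, Sox8 in 15, Sox10 in 12, Myrf in 10 and Nkx6-2 in 8.

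**Figure D2:**
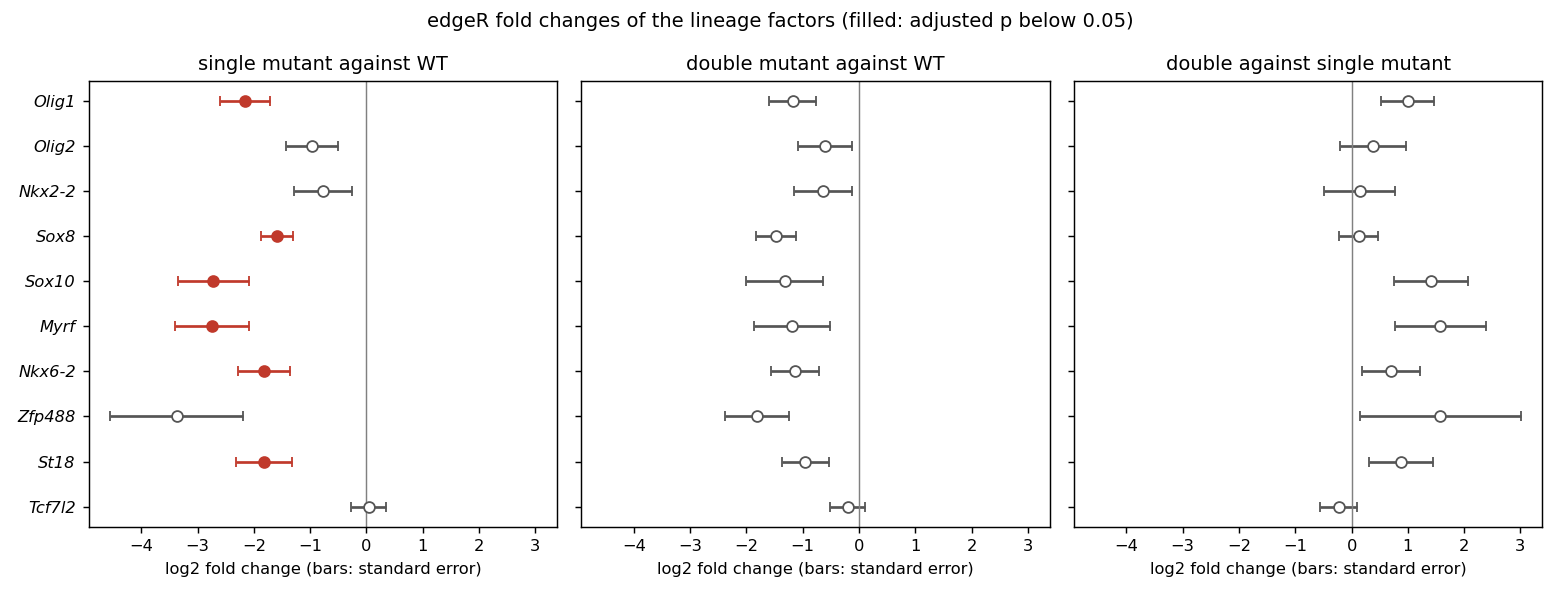
Log2 fold change by edgeR of each factor in the 3 comparisons of genotypes (points), with standard errors (bars) and filled points where the adjusted p was below 0.05. The 6 filled points are all in the comparison of single mutants with WT, and in the last panel 9 of 10 points lie right of 0 with none filled.

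Per kilobase of annotated exon, a scale on which different genes can be set side by side, Olig1 (366 ± 132 CPM per kb, SD, n = 4) and Nkx6-2 (359 ± 119) were the highest in WT and did not differ beyond their spread. Sox10 (70.8 ± 58.6), Sox8 (68.6 ± 16.7) and Olig2 (57.7 ± 16.8) followed with overlapping ranges, all below the range of Nkx6-2. Myrf (21.9 ± 13.2), Tcf7l2 (18.9 ± 4.64) and St18 (15.9 ± 5.98) overlapped one another, and Nkx2-2 (4.07 ± 1.35) and Zfp488 (3.73 ± 0.77) formed the low end. In single-mutant samples the order was Nkx6-2 (101.5 ± 69.4 CPM per kb, SD, n = 4), Olig1 (81.9 ± 41.9), Olig2 (29.6 ± 19.3), Sox8 (22.8 ± 4.30), Tcf7l2 (19.3 ± 5.65), Sox10 (10.8 ± 6.74), St18 (4.52 ± 3.71), Myrf (3.26 ± 2.79), Nkx2-2 (2.39 ± 0.80) and Zfp488 (0.36 ± 0.43). Among these the ranges of all neighbours overlapped except those of Nkx2-2 and Zfp488. In double mutants the order again began with Nkx6-2 (165 ± 91.9 CPM per kb, SD, n = 4) and Olig1 (164 ± 83.3), and Olig1 and Olig2 (38.5 ± 25.4) were the one pair of neighbours without overlap.

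The regulatory sequence next to the start sites was inspected for short motifs of the same factor families. RefSeq windows of GRCm38.p6, from 250 bases before to 50 bases after a start site, held 7 windows for 6 of the members and were searched on both strands. The letters searched were ACAAAG (SOX family), ATCAAAG (TCF/LEF family), CTGGCAC and CTGGTAC (MYRF), and CAGCTG and CATATG (E-boxes that OLIG proteins can bind). They occur in 18.7%, 3.73%, 5.01%, 2.24%, 16.3% and 3.91% of the 32851 windows of this length. A match is a description of letters and no evidence of binding, and no window was matched for Olig1, Sox10, Myrf and St18.

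Shown are Zfp488 and the downstream start site of Tcf7l2, the only windows of members with a match, and for comparison Nkx6-2 and Sox8, which fell in the mutants and hold none of the 6 motifs, with capitals marking the matched letters. In Zfp488 (chr14:33978715-33979014, reverse strand) CAGCTG starts 8 bases and CTGGTAC 11 bases after the start site, and the 2 motifs overlap in the letters CTG. In Tcf7l2 (chr19:55895071-55895370, forward strand) ACAAAG lies on the reverse strand, 14 bases before the start site. The windows of Nkx6-2 (chr7:139582748-139583047) and Sox8 (chr17:25570637-25570936) are on the reverse strand.
Zfp488: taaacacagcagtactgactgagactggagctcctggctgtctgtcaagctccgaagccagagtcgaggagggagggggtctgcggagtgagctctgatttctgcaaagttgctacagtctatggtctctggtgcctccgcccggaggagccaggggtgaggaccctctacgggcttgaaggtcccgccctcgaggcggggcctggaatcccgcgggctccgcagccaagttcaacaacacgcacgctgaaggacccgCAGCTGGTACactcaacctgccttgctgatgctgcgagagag
Tcf7l2: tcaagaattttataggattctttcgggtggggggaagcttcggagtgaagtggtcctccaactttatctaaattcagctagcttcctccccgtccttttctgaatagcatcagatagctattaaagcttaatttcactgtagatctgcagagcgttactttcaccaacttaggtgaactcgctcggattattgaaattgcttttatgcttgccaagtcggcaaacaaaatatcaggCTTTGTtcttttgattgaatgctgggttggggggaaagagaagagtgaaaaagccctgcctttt
Nkx6-2: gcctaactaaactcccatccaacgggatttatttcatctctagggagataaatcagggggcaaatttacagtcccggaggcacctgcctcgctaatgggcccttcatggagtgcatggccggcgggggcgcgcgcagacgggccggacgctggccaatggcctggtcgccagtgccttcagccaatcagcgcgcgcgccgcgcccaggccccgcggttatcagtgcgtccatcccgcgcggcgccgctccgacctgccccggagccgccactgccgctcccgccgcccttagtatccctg
Sox8: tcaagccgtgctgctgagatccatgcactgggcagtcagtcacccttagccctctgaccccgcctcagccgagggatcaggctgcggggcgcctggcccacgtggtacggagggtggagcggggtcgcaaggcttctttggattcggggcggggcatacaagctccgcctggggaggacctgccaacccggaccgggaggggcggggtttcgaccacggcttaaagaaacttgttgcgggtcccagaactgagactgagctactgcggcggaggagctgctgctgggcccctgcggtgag
The GC content was 66.7% in the window of Nkx6-2, 66.3% in that of Sox8, 61.3% in that of Zfp488 and 42.0% in this window of Tcf7l2, where the median of all windows was 52.7%.

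Ratios between factors within a sample do not depend on how the libraries were scaled, apart from the pseudocount. The log2 ratio of Myrf to Sox10, each as CPM + 1, compares the driver of myelination with the factor that precedes it. It was -0.16, -0.91, -0.56 and -0.36 in WT, -0.54, -0.18, -1.63 and -1.02 in single mutants and -0.58, -0.14, -1.02 and -0.84 in double-mutant samples. The ranges overlapped in all genotypes. Single mutants minus WT gave -0.35 (exact permutation, both sides, p = 0.371, or 0.657 adjusted over 3 comparisons, n = 4 per genotype), where 0.0286 is the smallest p that 4 samples against 4 can give. Myrf and Sox10 were the pair of factors with the highest correlation over the 12 samples (Pearson's r 0.97, Spearman's rho 0.97), and r was 0.93 after the genotype means were removed. These points share the libraries and their depth.

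Myrf was also set against Olig2, as a description of values already known to differ in their fold changes. The log2 ratio of Myrf to Olig2 was -1.06, 0.66, -0.58 and -0.45 in WT and -2.97, -1.84, -2.23 and -1.48 in single-mutant samples, with no overlap. In double mutants the ratio was -0.51, -0.89, -1.14 and -1.70, which overlapped both other genotypes.

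Olig1 was also set against its neighbour Olig2. The log2 ratio of Olig1 to Olig2 was 2.02 to 2.61 in WT, 1.02 to 1.58 in single mutants and 1.37 to 2.74 in double-mutant samples. Zfp488 relative to Olig2 was at -3.39 to -2.46 in WT and at -5.57 to -4.69 in single mutants. Sox10, Sox8, St18 and Tcf7l2 relative to Olig2 overlapped between these genotypes. Relative to Sox10, Tcf7l2 was at -2.14 to 0.16 in WT and at 0.29 to 2.70 in single-mutant samples, without overlap. Relative to the mature oligodendrocyte marker sum, the log2 ratio of Olig1 was -6.42 to -5.73 in WT and -7.37 to -6.83 in single mutants. That of Zfp488 was -12.2 to -11.4 in WT and -13.7 to -12.7 in single mutants. The ratios of the other factors to this sum overlapped between these genotypes. The ratios of this paragraph were compared by their ranges alone and were not tested.

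**Figure D3:**
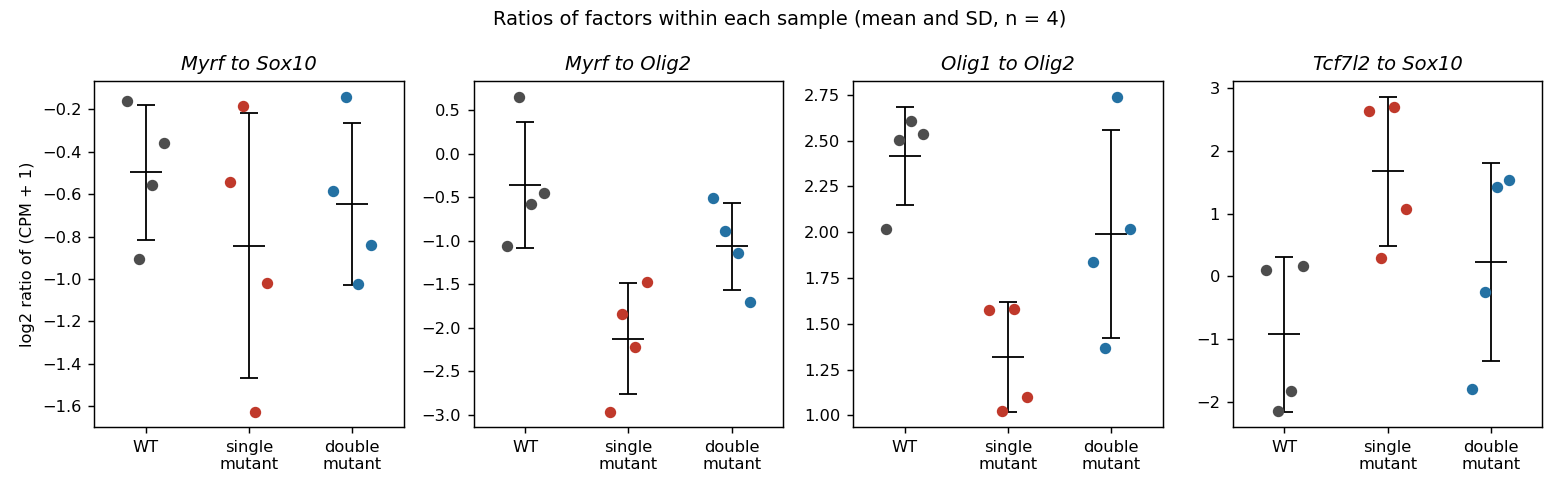
Log2 ratios of (CPM + 1) for 4 pairs of factors in each sample (points), with the mean and SD of the 4 samples of each genotype (bars). WT and single-mutant points overlap for Myrf to Sox10 and are apart for the other pairs, and the double-mutant points spread over both.

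In double mutants none of the 10 factors passed the test against WT with edgeR, where 3 of all genes tested (0.0169%) fell and 31 (0.175%) rose. At an unadjusted p below 0.05 there were 5 lower factors (Olig1, Sox8, Nkx6-2, Zfp488 and St18), beside 4.57% of all genes, and DESeq2 called Sox8 and Zfp488 lower, beside 1.12% of all genes (3.74% were called higher). None of the 10 was higher at an unadjusted p below 0.05, as 7.82% of all genes were. All 10 fitted log2 fold changes were below 0, with a median of -1.16. Sox8 and Zfp488 were the 2 factors whose double-mutant and WT samples did not overlap (3.58% of all genes, lower).

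Sox8 was at 74.4, 127, 51.4 and 56.7 CPM in double-mutant replicates 1, 2, 3 and 5, of which replicate 2 alone was above the single-mutant range. Its log2 fold change was -1.48 against WT (standard error 0.36, adjusted p = 0.131) and 0.12 against single mutants (standard error 0.34, adjusted p = 0.9999). Zfp488 was at 8.82, 2.71, 5.19 and 1.67 CPM, with -1.82 against WT (standard error 0.57, adjusted p = 0.225) and 1.58 against single mutants (standard error 1.43, adjusted p = 0.996).

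Myrf was at 118, 72.4, 17.9 and 13.1 CPM and Sox10 at 177, 79.9, 37.4 and 24.2 CPM in the same order. Replicates 1 and 2 were thus within or near the WT range of both genes, and replicates 3 and 5 were within the single-mutant range. Against WT the log2 fold change was -1.19 for Myrf (standard error 0.68, adjusted p = 0.513) and -1.32 for Sox10 (standard error 0.69, adjusted p = 0.471).

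Olig1 was at 605, 349.5, 278 and 185 CPM, Olig2 at 168, 135, 40.8 and 45.0 CPM, Nkx6-2 at 383, 209, 156 and 109 CPM and St18 at 93.2, 48.5, 26.8 and 36.2 CPM. For each of these 4 genes replicate 1 was the highest and replicate 3 or 5 the lowest. Tcf7l2 ran the other way, at 50.6, 67.2, 102 and 72.2 CPM. Nkx2-2 was at 11.3, 4.67, 4.01 and 6.59 CPM.

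Against single mutants, 9 of the 10 factors had a fitted log2 fold change above 0, with a median of 0.79, and Tcf7l2 was at -0.23. None passed with edgeR, with an unadjusted p below 0.05 or with DESeq2, and in no factor were the groups apart, as they were in 1.23% of all genes (higher) and 1.99% (lower). Over all genes the test had 0 calls in either direction (0%), while 310 genes (1.75%) were higher and 575 (3.25%) lower at an unadjusted p below 0.05 and DESeq2 called 20 higher (0.113%) and 67 lower (0.378%). The largest values were 1.58 for Myrf (standard error 0.81, adjusted p = 0.982) and 1.58 for Zfp488, given above with its wider standard error. Sox10 followed with 1.41 (standard error 0.66, adjusted p = 0.968) and Olig1 with 1.001 (standard error 0.47, adjusted p = 0.968). This comparison shares its samples with the other two, so the positions of the double mutants between both genotypes are not separate results.

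The double-mutant samples differed among themselves across the whole network. The mean of log2(CPM + 1) over the 10 factors was 6.50, 5.89, 5.25 and 4.99 in replicates 1, 2, 3 and 5, against 6.48 to 7.05 in WT and 4.34 to 5.74 in single-mutant samples. Mature oligodendrocyte markers summed to 51368, 30747, 26189.6 and 16575 CPM in the same 4 samples, the same order. The microglia markers summed to 518, 1131, 24322 and 2705 CPM and the endothelial markers to 794, 994, 4362 and 7749.8 CPM, higher in replicates 3 and 5 than in 1 and 2. Among single-mutant samples, replicate 2 had the highest mean over the factors (5.74) and the lowest microglia (1396 CPM) and endothelial sums (1023 CPM). The part of these cells in the levels of the factors was not tested.

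**Figure D4:**
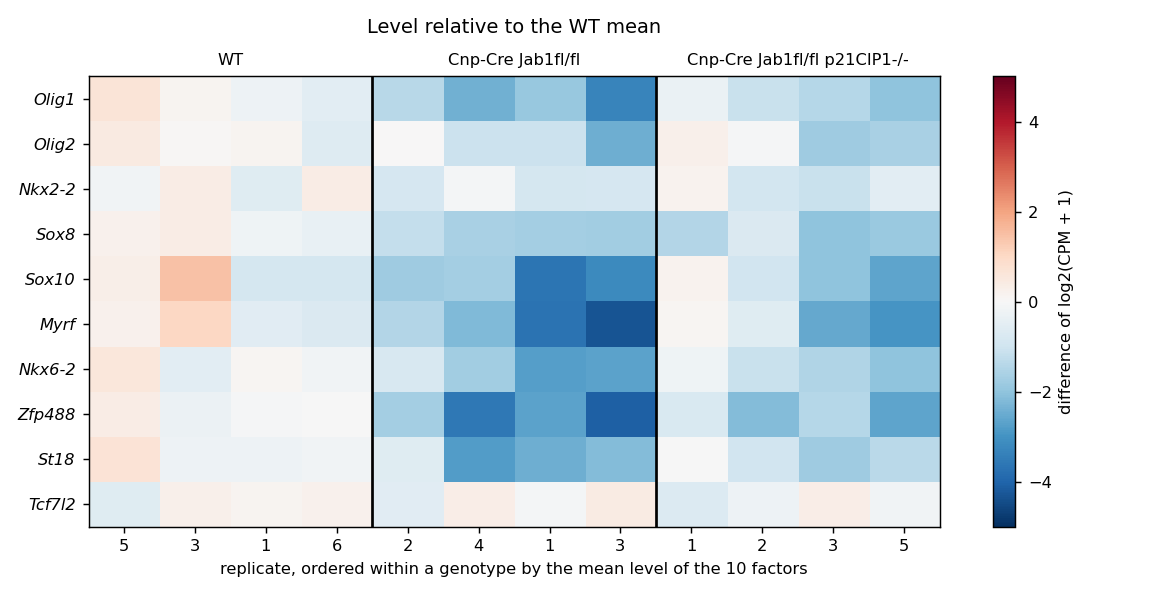
Difference of log2(CPM + 1) from the WT mean for each factor (rows) in each of the 12 samples (columns), with the samples of a genotype ordered by their mean over the 10 factors. Blue marks lower levels. By their mean over the factors, double-mutant replicates 1 and 2 (6.50 and 5.89) are closer to WT than replicates 3 and 5 (5.25 and 4.99), though not in every row, and the row of Tcf7l2 shows no decrease shared by the mutant samples.

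The other genes of the program were read from lists of myelin target genes, progenitor regulators, and partners and chromatin factors. Of 22 myelin target genes of SOX10 and MYRF, 12 fell and 0 rose in single mutants as compared with WT. Among all genes tested 2.46% fell and 5.19% rose. The median log2 fold change of the 22 was -2.14. At an unadjusted p below 0.05, 18 were lower and 0 higher, beside 9.3% and 13.2% of all genes. DESeq2 called 16 lower and 0 higher, beside 5.66% and 9.52% of all genes. The 12 were Opalin (-4.29), Cntn2 (-3.39), Cnp (-3.27), Fa2h (-3.12), Erbb3 (-3.09), Mal (-2.66), Aspa (-2.40), Ermn (-2.36), Mog (-2.26), Mag (-2.21), Mobp (-2.07) and Nfasc (-1.79). They include receptors and adhesion molecules of the sheath and its paranodes (Erbb3, Mag, Cntn2, Nfasc) and the lipid enzymes Fa2h and Aspa. Cnp is also the gene whose regulatory sequence drives Cre in these mice, and it is among the mature oligodendrocyte markers summed above. Both mutant genotypes carry this Cre, and WT by its label does not. An effect of the Cre allele on the level of Cnp cannot be told apart from that of Jab1 loss. Opalin, a membrane protein of oligodendrocytes, averaged 1147 ± 612 CPM in WT (SD, n = 4), while the mutants averaged 58.4 ± 63.6 CPM. Mbp, the protein that compacts myelin, had 0.27 on the log2 scale (adjusted p = 0.811, standard error 0.51). Without mutant replicate 1, 3 or 4 the number that fell was 7. In double mutants 0 of the 22 passed against either genotype, with a median of -1.22 against WT, where 12 were lower at an unadjusted p below 0.05 (4.57% of all genes) and DESeq2 called 9 lower (1.12% of all genes). Against single mutants the median was 0.86. At an unadjusted p below 0.05, 2 genes were higher (1.75% of all genes), and DESeq2 called 0.

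Regulators that are active in progenitors formed a separate list. Of 17 tested, 1 fell and 0 rose in single mutants, beside 2.46% and 5.19% of all genes, and the median was 0.20. The 1 that fell was the ETS factor Etv1 (-1.86, standard error 0.50, adjusted p = 0.0453). The call of Etv1 was lost without WT replicate 1, 5 or 6 and without mutant replicate 1, 3 or 4. At an unadjusted p below 0.05, 2 of these regulators were higher and 2 lower, beside 13.2% and 9.3% of all genes. DESeq2 called 1 higher, Sox4 (1.49, adjusted p = 0.0199), and 2 lower, beside 9.52% and 5.66% of all genes. Sox9, which precedes Sox10, had -0.40 on the log2 scale (standard error 0.41, adjusted p = 0.623), and the Notch effector Hes5 had -0.72 (standard error 0.48, adjusted p = 0.416). Sox9 stands in the astrocyte list too, and the part of astrocyte RNA in its level was not tested. Of 10 OPC markers, 2 rose, the ligand Bmp4 and the proteoglycan Cspg4 (named after their values had been seen). DESeq2 called the same number higher. The shares of all genes that were higher were 5.19% with edgeR and 9.52% with DESeq2. The median of the 10 markers was 1.39. The sum of these markers was 420 to 1088 CPM in WT and 458 to 731 CPM in single mutants, which overlapped. Ptprz1 (named after its values had been seen) made up most of it. Its mean was 706 CPM of 773 CPM in WT and 440 CPM of 576 CPM in single mutants. The fitted change was above 0 for 9 of the 10 markers and below 0 for Ptprz1 (-0.68, adjusted p = 0.315). Cspg4 is also expressed by pericytes and stands in the mural list too, where it is 1 of the 5 that rose. The progenitor regulator Nkx6-1 did not pass the filter on expression.

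Partners and chromatin factors through which the lineage factors act gave 0 calls among 28 genes with edgeR, with a median of 0.14. At an unadjusted p below 0.05 there were 3 higher genes (Sox17, Klf6 and Chd8) and 0 lower, beside 13.2% and 9.3% of all genes. DESeq2 called Sox17 and Klf6 higher, beside 9.52% of all genes. These genes were named after their values had been seen. Sox17 was at 5.12 to 22.3 CPM in WT and at 12.6 to 121 CPM in single mutants. In the same comparison 7 of 10 endothelial markers rose, and the part of endothelial RNA in the level of Sox17 was not tested. The E proteins Tcf4 (0.09, standard error 0.25) and Tcf12 (-0.21, standard error 0.30), which pair with OLIG factors, the repressor Zeb2 (-0.16, standard error 0.27), the remodeler Chd7 (0.54, standard error 0.31), and the deacetylases Hdac1 (-0.13, standard error 0.27) and Hdac2 (0.60, standard error 0.36) had adjusted p values of 0.331 to 0.887. In double mutants 0 genes of the progenitor and partner lists passed with edgeR against either genotype. Against WT, 1 progenitor regulator was higher and 1 lower at an unadjusted p below 0.05, beside 7.82% and 4.57% of all genes. DESeq2 called Sox4 higher (adjusted p = 0.0324) and Etv1 lower (adjusted p = 0.0211), beside 3.74% and 1.12% of all genes. Both genes were called by DESeq2 in the same direction in single mutants. Of the partners 2 were higher at an unadjusted p below 0.05 and DESeq2 called 0. Against single mutants 1 gene of each list was lower at an unadjusted p below 0.05 (3.25% of all genes) and DESeq2 called 0. Sox4 was named after its values had been seen.

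**Figure D5:**
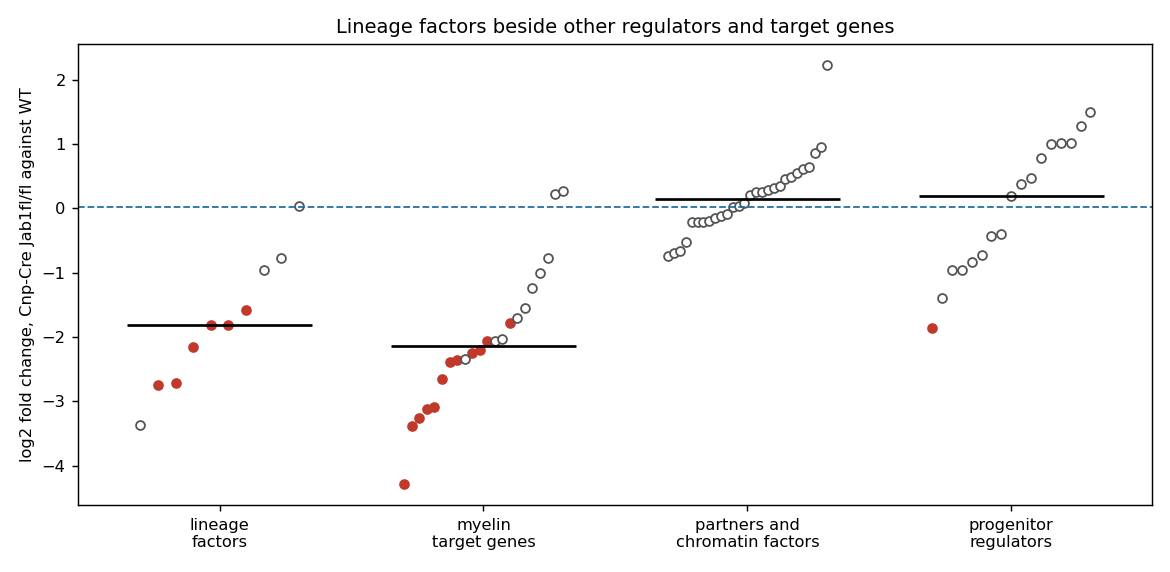
Log2 fold change of each gene in single mutants against WT by list (points, filled where the adjusted p was below 0.05), with the median of each list (black line) and of all genes tested (dashed line, 0.02). The medians of the lineage factors (-1.82) and myelin target genes (-2.14) lie below the dashed line, and those of the partners and chromatin factors (0.14) and progenitor regulators (0.20) lie close to it.

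The genes with the level pattern most like that of each factor were found by Pearson's r of log2(CPM + 1) over the 12 samples, which share libraries and depth. For Olig1, Nkx6-2, Zfp488, Myrf and Sox10 they included genes of the myelin target list. Olig1 was closest to Cnp, Prkcz and Mag (r 0.98 each), Nkx6-2 to genes that included Sept4 (0.98) and Aspa (0.98), and Zfp488 to Cers2 (0.97), Cnp (0.97) and Olfml1 (0.96). Myrf was closest to the receptor kinase Tyro3 (0.99), Fa2h (0.98) and Zfp536 (0.98), and Sox10 to the ephrin Efnb3 (0.99), Fa2h (0.97) and Plekhh1 (0.97). St18 went with Tmbim1 (0.96), Cldnd1 (0.96) and Nipal4 (0.95), Sox8 with Nalcn (0.97), Sgcb (0.97) and Mir7052 (0.95), and Olig2 with Sytl2 (0.95), Dnajb2 (0.93) and Pcyt2 (0.93). The closest genes of Nkx2-2 were Gm43496 (0.92), AC118724.1 (0.88) and Gm28320 (0.86), and those of Tcf7l2 were Arhgap26 (0.93), Ccdc80 (0.90) and Aass (0.89).

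Among the factors themselves, the correlation of Tcf7l2 with each of the other 9 was below 0, from -0.63 with Olig2 to -0.04 with Nkx2-2. After the genotype means were removed, r was -0.88 between Tcf7l2 and St18 and -0.80 between Tcf7l2 and Olig1. With the other factors it ranged from -0.80 (Olig2) to -0.11 (Nkx2-2), and with Sox10 it was -0.38. The astrocyte marker sum was 9331, 12633, 5332 and 9207 CPM in WT replicates 1, 3, 5 and 6, lowest and highest in the same samples as Tcf7l2. In double-mutant replicates 1, 2, 3 and 5 it was 3949, 9599.5, 10577 and 7011 CPM, again lowest and highest where Tcf7l2 was. In single-mutant replicates 1 to 4 it was 8298, 6649, 6968 and 3552 CPM, an order that Tcf7l2 did not follow. The part of astrocyte RNA in the level of Tcf7l2 was not tested. Olig1 and Zfp488 had r of 0.96 and Olig1 and Olig2 of 0.85.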

How the data were processed

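RNA-Seq libraries (SMART-Seq v4, paired ends) were made from sorted oligodendrocytes. According to the methods, the authors used Trimmomatic 0.32 for trimming, STAR 2.5.3a for alignment (GRCm38) and featureCounts, and deposited the raw counts, 1 row a symbol. Whether counting used strand or multi-mapped reads is not given in the sources used here.

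From these counts, the 17716 genes that reached 1 CPM in 4 or more of 12 samples were kept, and each pair of genotypes was fitted with its 8 samples by edgeR 4.0.16 (quasi-likelihood test, TMM factors, R 4.3.3), with Benjamini-Hochberg adjustment over all genes tested. The standard error is the log2 fold change divided by the square root of F. CPM for display used TMM factors of all 12 samples. The Myrf to Sox10 ratio was tested by exact permutation of samples, with Olig2 as the reference gene as an alternative. DESeq2 1.42.0 and limma 3.58.1 (voom), other scaling, other filters, a fit of all 12 samples, a replicate block and leaving out each sample were alternatives, and the fits were tested on simulated data. Total counts had a median of 103095817.5 per sample, and 1 CPM stood for 68.1 to 155 counts. A count of 0 allows up to 3 counts, and such limits cover counting error only. Samples are separate pools of brains by the labels.

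The members and gene lists were chosen with earlier results of these data known. Named are all 10 factors, every gene of the progenitor, partner and myelin target lists that passed in any comparison, Sox9, Hes5, Tcf4, Tcf12, Zeb2, Chd7, Hdac1, Hdac2, Mbp, Mag and Mog regardless, the 3 genes most like each factor, and the targeted genes, except that some named by this rule are not reported here. Positions and exon lengths are from GENCODE M21 basic, in which 98.2% of symbols matched 1 gene. Promoter windows are from RefSeq.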

Additional observations from a re-analysis of the deposited data

Results flagged for a closer look

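Among 30 groups of 4 samples, 1 for each factor and genotype, 3 held a sample far from the others by Dixon's test on log2(CPM + 1), in which chance alone marks about 1 in 20 groups. Nkx2-2 in Cnp-Cre Jab1fl/fl was highest in replicate 4, at 9.04 CPM against 5.14 CPM in the next sample (gap over range 0.903 on that log2 scale). Tcf7l2 in WT was lowest in replicate 5, at 52.9 CPM against 90.0 CPM (0.884), and St18 in WT was highest in the same replicate, at 153.4 CPM against 82.6 CPM (0.914).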

How the results depend on the processing

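Without 1 sample at a time, 2 to 7 lineage factors passed in Cnp-Cre Jab1fl/fl against WT (6 with all samples), 7 to 17 myelin target genes (12), 0 to 1 progenitor regulators (1) and 0 to 1 partners and chromatin factors (0). Among all genes tested 174 to 667 fell in these fits (435 with all samples). Under the other alternatives 4 to 7 factors and 8 to 18 myelin target genes passed. Progenitor regulators numbered 0 with no filter and with a replicate block, 2 with a mean of at least 10 CPM and 3 with DESeq2. Partners numbered 1 with upper-quartile factors and 2 each with a mean of at least 10 CPM, DESeq2 and voom. In double mutants DESeq2 called 2 factors against WT, every other alternative 0, and against Cnp-Cre Jab1fl/fl all gave 0.

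The log2 fold change of Tcf7l2 in Cnp-Cre Jab1fl/fl against WT turned to -0.084 with no filter and to -0.022 with a replicate block, and ranged from -0.13 to 0.19 when 1 sample was left out. Between double mutants and Cnp-Cre Jab1fl/fl the ranges without 1 sample crossed 0 for Olig2 (-0.027 to 0.89), Sox8 (-0.23 to 0.29), Nkx2-2 (-0.24 to 0.44) and the log2 ratio of Myrf to Sox10 (-0.064 to 0.42). The cause was not tested.

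Samples with the same replicate number did not deviate together (r -0.05 to 0.08, -0.13 to -0.01 and -0.19 to 0.08 in the 3 comparisons), so the numbers were not taken to pair them, and 0 of 4, 0 of 6 and 1 of 6 samples correlated best with their own number. With the replicate block 4 factors passed in Cnp-Cre Jab1fl/fl against WT (Olig1, Sox10, Myrf and Nkx6-2), 16 myelin target genes and 0 partners, and 0 factors passed in the other comparisons. Over all genes the block gave 420 higher and 240 lower, no filter 581 and 322, the fit of 12 samples 644 and 297, and DESeq2 1687 and 1002, against 919 and 435. In double mutants against WT the 31 higher and 3 lower genes became 663 and 199 with DESeq2, 122 and 17 with a mean of at least 10 CPM, 157 and 7 in the fit of 12 samples, 20 and 1 with no filter, and 1 and 0 with the block. Zfp488 had the lowest counts of the 10 factors in the single mutants, at 0 to 497.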
